A study of Mus musculus with 8 samples.

Results

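The 34 genes described here make cholesterol and fatty acids or control how much of them a cell makes. They were taken by gene symbol from a table of 24155 genes, and all 34 were in it. They fall into 24 sterol genes and 10 fatty acid genes. The sterol genes are 6 enzymes from Hmgcs1 to Fdps, 11 enzymes from Fdft1 to Dhcr7, and 7 genes for regulators, sterol transport and a precursor (Insig1, Insig2, Srebf1, Srebf2, Scap, Stard4 and Acat2). The fatty acid genes are Acly, Acaca, Fasn, Scd1, Scd2, Elovl5, Elovl6, Fads1, Fads2 and Aacs. Aacs makes acetoacetyl-CoA, as the sterol member Acat2 does, and its place with the fatty acid genes is a choice. The counts and medians of the fatty acid set include it. The study measured polyadenylated RNA in primary mouse oligodendrocyte progenitors, the glial precursors of myelinating oligodendrocytes. The cKO group was 4 libraries from Ehmt1fl/fl;Ehmt2fl/fl progenitors infected with Ad-RFP-iCre, an adenovirus for Cre recombinase, which recombines floxed alleles, and a red fluorescent marker. The control group was 4 libraries from Ehmt1fl/fl;Ehmt2fl/fl progenitors infected with Ad-RFP, which carries the fluorescent protein without Cre. All cells came from male and female pups of postnatal day 7, were purified by immunopanning on antibody-coated plates, and grew in SATO medium containing 10 ng/mL PDGF-AA plus 20 ng/mL bFGF. Virus was left on for 6 hours at a multiplicity of infection of 10, and cells were collected 72 hours after infection. Both groups therefore carried floxed alleles and adenovirus, loss of both genes was studied together, and the share of cells that recombined is not given. Each group holds replicates 1, 3, 4 and 6, and the labels give each number a batch with 1 cKO and 1 control library. The labels do not state that the batches were separate animals, so p-values measure the spread between these pairs of libraries, which may be technical.

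Cholesterol and fatty acids are both built from cytosolic acetyl-CoA, which ATP citrate lyase (Acly) makes from citrate. In the sterol branch, acetyl units are joined to mevalonate, mevalonate is turned into isoprenoid units and squalene, and squalene is closed into lanosterol and trimmed to cholesterol. In the fatty acid branch, acetyl-CoA carboxylase makes malonyl-CoA, fatty acid synthase builds the chain, and elongases and desaturases extend it and add double bonds. The transcription factors SREBP-1 (Srebf1) and SREBP-2 (Srebf2) control both branches, SREBP-2 mainly the sterol genes and the c form of SREBP-1 mainly the fatty acid genes. Scap carries the SREBP precursors out of the endoplasmic reticulum, and the Insig proteins hold Scap back when sterols are plentiful. Myelin is rich in cholesterol and very long fatty acids, and oligodendrocytes make much of their own cholesterol.

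Known SREBP target promoters combine sterol regulatory elements with sites for NF-Y, which binds CCAAT, and SP1, which binds GC boxes. The windows searched were the 250 bases before each gene's start in RefSeq (GRCm38.p6), on both strands, and 27 of the 34 members had at least 1. The fatty acid genes Scd1, Scd2 and Fads1 and the sterol genes Fdps, Fdft1, Sqle and Stard4 had none. The shares below do not cover these genes, so they do not describe either full set. The letters searched were CCAAT, the GC box GGGCGG, the E-box CACGTG, the sterol regulatory core CACNCCAC and its longer form TCACNCCAC, which contains the core. CCAAT was present in 18 of 20 sterol genes (90.0%) and 2 of 7 fatty acid genes (28.6%), against 37.5% of 27025 genes with a window. GGGCGG was present in 19 of 20 sterol genes (95.0%) and 2 of 7 fatty acid genes (28.6%), against 35.4% of all genes. CACGTG was in 5 of 20 sterol genes (25.0%) and 1 of 7 fatty acid genes (14.3%), against 6.86% of all genes. CACNCCAC was in Hmgcs1, Insig1 and Acat2, or 15.0% of the sterol genes, and in 0 of 7 fatty acid genes, against 6.05% of all genes. TCACNCCAC was in Hmgcs1 alone among members, and in 1.22% of all genes. A match describes letters and not a bound site, and no match says only that the letters are not in this window. The promoters below are shown because they span these patterns among genes described later, with matches in capitals. Insig1, Mvk, Aacs and Fasn all fell in cKO cells, and Hmgcs1, which did not pass the test, was added after its matches were seen. The Insig1 sequence is chr5:28071162-28071362 on the plus strand, Mvk chr5:114444019-114444268 on the plus strand, Hmgcs1 chr13:119690101-119690350 on the plus strand, Fasn chr11:120824548-120824797 on the minus strand and Aacs chr5:125475623-125475813 on the plus strand, each written 5′ to 3′ in the direction of the gene. Insig1 and Aacs are shown only up to the first base of the gene in the deposited table, so the Insig1 core, which lies 9 to 2 bases before the RefSeq start, is not in the stretch printed.
Insig1: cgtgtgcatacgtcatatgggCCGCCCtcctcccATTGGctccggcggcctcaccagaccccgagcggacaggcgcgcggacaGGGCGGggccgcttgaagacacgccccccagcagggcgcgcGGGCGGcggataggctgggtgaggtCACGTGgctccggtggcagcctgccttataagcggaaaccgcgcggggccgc
Mvk: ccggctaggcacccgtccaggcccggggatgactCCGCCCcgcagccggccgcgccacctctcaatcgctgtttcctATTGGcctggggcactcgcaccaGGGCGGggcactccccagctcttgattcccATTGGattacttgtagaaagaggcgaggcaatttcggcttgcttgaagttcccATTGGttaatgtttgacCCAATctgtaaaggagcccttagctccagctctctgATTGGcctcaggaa
Hmgcs1: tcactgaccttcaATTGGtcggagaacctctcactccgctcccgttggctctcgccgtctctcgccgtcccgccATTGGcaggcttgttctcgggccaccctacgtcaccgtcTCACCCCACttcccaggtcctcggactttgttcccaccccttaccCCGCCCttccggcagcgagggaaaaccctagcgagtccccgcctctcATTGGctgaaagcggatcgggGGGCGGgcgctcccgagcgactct
Fasn: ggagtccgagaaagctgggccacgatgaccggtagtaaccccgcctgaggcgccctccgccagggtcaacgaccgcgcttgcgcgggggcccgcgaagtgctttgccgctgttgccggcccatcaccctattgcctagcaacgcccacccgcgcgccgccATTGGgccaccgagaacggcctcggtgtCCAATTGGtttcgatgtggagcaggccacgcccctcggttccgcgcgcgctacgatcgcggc
Aacs: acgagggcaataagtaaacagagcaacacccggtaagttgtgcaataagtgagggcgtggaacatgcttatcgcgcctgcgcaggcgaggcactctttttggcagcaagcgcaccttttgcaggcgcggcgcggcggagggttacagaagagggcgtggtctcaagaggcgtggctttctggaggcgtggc
Insig1 shows 3 GC boxes, a CCAAT (here as its complement ATTGG) and an E-box. Mvk has 5 CCAAT matches and 2 GC boxes. Hmgcs1 has 3 CCAAT matches, 2 GC boxes and TCACCCCAC, a match to TCACNCCAC. Fasn has 3 CCAAT matches, a pair of which overlap as CCAATTGG, and Aacs has none of the letters searched.

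**Figure D1:**
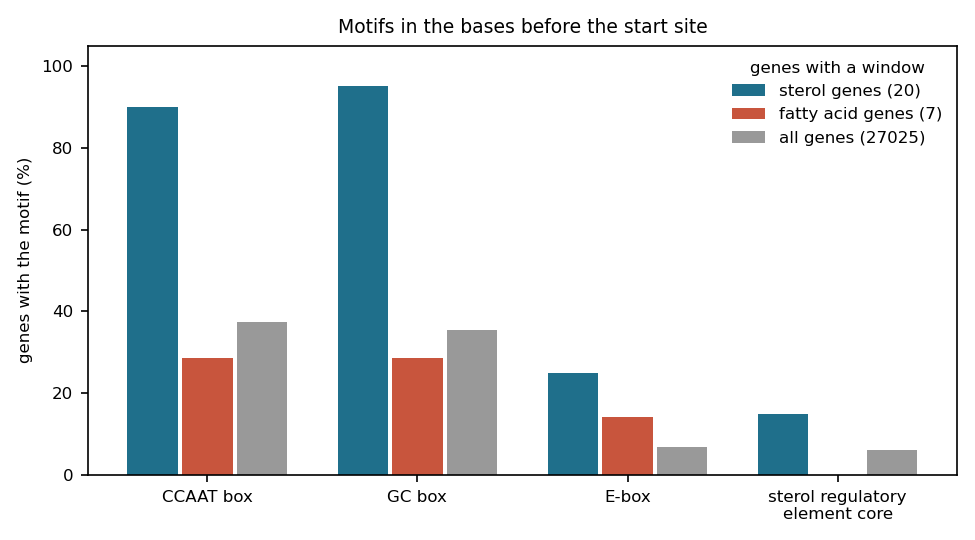
Share of genes, in percent, with at least 1 match to each set of letters in the 250 bases before the RefSeq start, for the 20 sterol genes and 7 fatty acid genes with a window and for all 27025 genes. CCAAT and GC boxes stand at 90.0% and 95.0% of these sterol genes, and at 28.6% of these fatty acid genes for both. Scd1, Scd2 and Fads1 are among the members without a window.

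Library totals ran from 43542742 to 65374488 estimated counts, and the smallest count of a member in any library was 716. Levels below are CPM, counts scaled to a common library size with TMM factors. The targeted genes were checked first. Ehmt1, a histone methyltransferase, had 36.1, 41.9, 42.4 and 45.7 CPM in cKO replicates 1, 3, 4 and 6, against 88.8, 100.2, 93.1 and 99.998 CPM in control replicates 1, 3, 4 and 6. Its partner Ehmt2 had 51.7, 55.5, 64.5 and 62.0 CPM in cKO replicates 1, 3, 4 and 6, against 154, 178, 196 and 181 CPM in control replicates 1, 3, 4 and 6. Every cKO library was below every control library for both, and they fell to 43.4% of control for Ehmt1 (adjusted p = 7.41e-08, edgeR) and 32.9% for Ehmt2 (adjusted p = 2.16e-09, edgeR). Counts cover whole genes, so the level left is not a measure of intact transcript. Progenitor markers were high, with 16 of 16 tested and a summed level of 9368 to 15873 CPM in cKO libraries and 9959 to 17087 CPM in control libraries, lower in cKO in all 4 pairs. Of them 2 rose, 2 fell and 12 did neither, with a median log2 fold change of -0.04. Matn4 rose by 1.21 (adjusted p = 0.00046, edgeR) and Lhfpl3 by 0.13 (adjusted p = 0.0181, edgeR). Among those that fell, Pdgfra fell by 0.31 on the log2 scale (adjusted p = 0.000227, edgeR). The summed level was not even across batches. Gpr17 ran from 160 to 4286 CPM in cKO libraries and from 102 to 5377 CPM in control libraries. Tnr ran from 398 to 2910 CPM in cKO libraries and from 244 to 2611 CPM in control libraries. Both were lowest in replicate 1 and highest in replicate 4 in each group, while Pdgfra was lowest in replicate 4.

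Of the 34 members, 15 fell, 1 rose and 18 did neither in cKO cells. The test was edgeR's quasi-likelihood fit on all 18102 genes that passed a filter on low counts, with the replicate number as a block, so that each cKO library was set against the control library of its own batch. A gene is said to have fallen or risen where its Benjamini-Hochberg adjusted p over all 18102 genes was under 0.05. Over all genes tested, 10.4% fell and 10.0% rose, against 44.1% of members that fell. All 34 members passed the filter. Most members are strongly expressed, and among the 2273 genes with a mean of at least 100 CPM the shares were 23.3% that fell and 9.24% that rose. At that level 14 of 27 members fell. Of the fatty acid genes, 9 of 10 fell and 0 rose, with a median log2 fold change of -0.17. The sterol genes had 6 of 24 that fell, 1 that rose and a median of -0.06, and the median over all genes tested was -0.01. At 100 CPM or more, 9 of 10 fatty acid genes and 5 of 17 sterol genes fell. The changes were small, and the median fatty acid gene stood at 88.6% of control and the median sterol gene at 96.1%. The difference between the sterol and fatty acid sets was not tested. In bulk RNA, fewer cells of a type and less RNA per cell cannot be told apart. Of 18 markers of differentiating oligodendrocytes, 9 rose in the same libraries, with values given below.

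These calls rest on the pairing. In the fit without the replicate block, 0 members passed, and 1 (Aacs) had an unadjusted p under 0.05, with an adjusted p of 0.945 in edgeR, while 3 of all genes passed. No member had cKO libraries all on one side of the control libraries, against 1.28% of all genes with every cKO library below and 2.40% with every one above. Within batches, 16 members were lower in cKO in all 4 pairs (7 sterol and 9 fatty acid), against 21.3% of all genes. Without replicate 4, 1 sterol gene (Mvk) and 9 fatty acid genes fell, against 4.99% of all genes tested in that fit. The counts were 4 sterol and 8 fatty acid genes without replicate 1 (6.32% of all genes), 6 and 9 without replicate 3 (5.38%) and 4 and 9 without replicate 6 (9.58%).

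**Figure D2:**
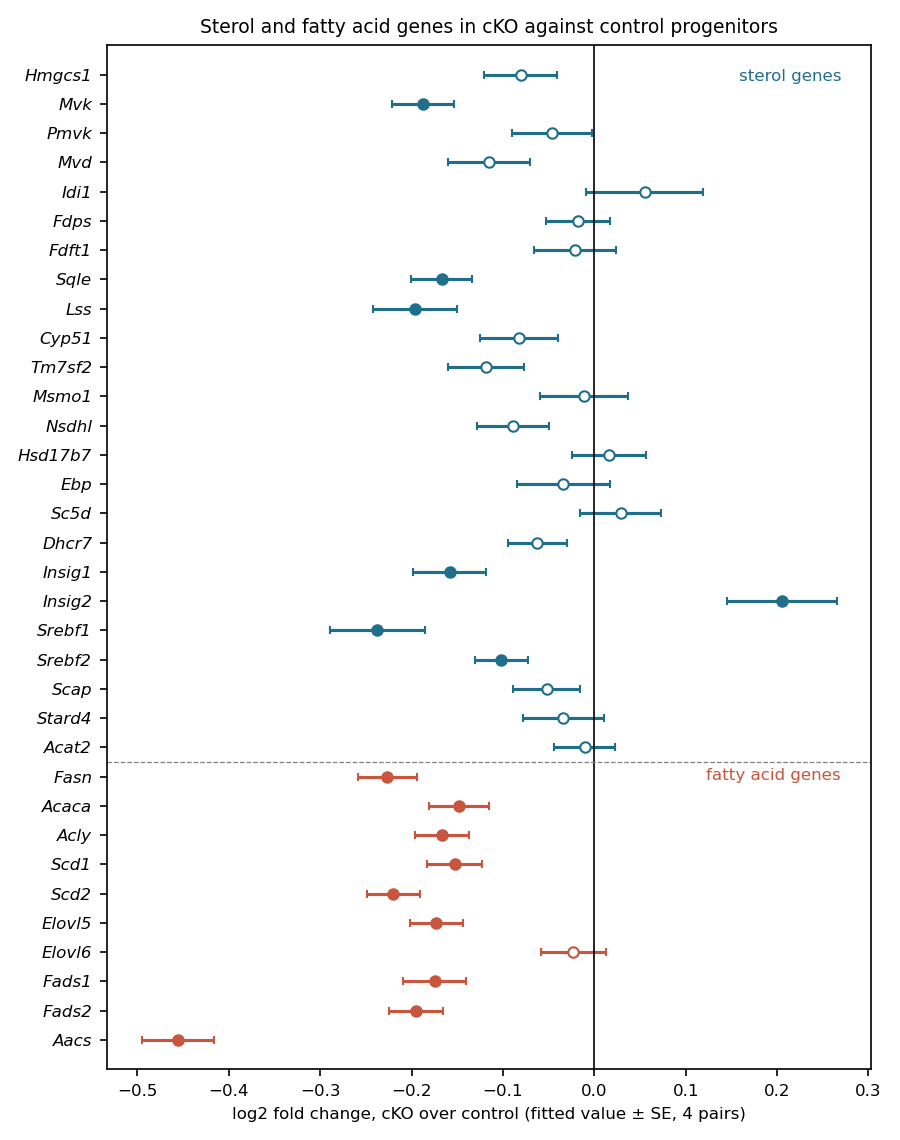
Log2 fold change of cKO over control for each of the 34 members (fitted value ± SE, 4 pairs), by branch, with filled points for members past the adjusted p of 0.05 and open points for the rest. The fatty acid genes lie left of 0, from Aacs at -0.46 to Elovl6 at -0.02, and the sterol genes lie on both sides, from Srebf1 at -0.24 to Insig2 at 0.21.

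Among the genes that feed both branches, Aacs had the largest change of the 34. Aacs (chr5:125475814-125517410, plus strand, mm10) encodes acetoacetyl-CoA synthetase, which turns the ketone body acetoacetate into acetoacetyl-CoA in the cytosol. It had 77.2, 76.5, 110.4 and 77.8 CPM in cKO replicates 1, 3, 4 and 6, against 116, 97.0, 154 and 104 CPM in control replicates 1, 3, 4 and 6. Every cKO library was below its own control, and cKO replicate 4 was the one that reached into the control range. Aacs fell to 72.9% of control, a log2 fold change of -0.46 ± 0.04 (SE), with an adjusted p of 6.49e-05 in edgeR. Acly (chr11:100476353-100528000, minus strand) had 375, 391, 485 and 393 CPM in cKO replicates 1, 3, 4 and 6, against 440.1, 425, 538 and 441 CPM in control replicates 1, 3, 4 and 6. Replicate 4 was the highest in both groups, and the other cKO libraries were below every control library. Acly fell, with a log2 fold change of -0.17 ± 0.03 (SE) (adjusted p = 0.00376, edgeR).

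The enzymes that build the chain also fell. Acaca (chr11:84129672-84401651, plus strand), which encodes acetyl-CoA carboxylase and makes malonyl-CoA, had 188, 187, 257 and 204 CPM in cKO replicates 1, 3, 4 and 6, against 220.4, 198, 276 and 231 CPM in control replicates 1, 3, 4 and 6. Replicate 4 was again the highest in both groups. Over the 4 pairs Acaca fell, with a log2 fold change of -0.15 ± 0.03 (SE) (adjusted p = 0.0104, edgeR), and without replicate 1 the adjusted p was 0.0573. Fasn (chr11:120805846-120824547, minus strand), fatty acid synthase, had 1181, 1079, 1319.5 and 1089 CPM in cKO replicates 1, 3, 4 and 6, against 1443, 1303, 1461 and 1250.5 CPM in control replicates 1, 3, 4 and 6. Only cKO replicate 4 lay within the control range, above control replicates 3 and 6. Fasn fell, with a log2 fold change of -0.23 ± 0.03 (SE) (adjusted p = 0.00108, edgeR).

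The desaturases, which add double bonds, fell as well. The stearoyl-CoA desaturases Scd1 (chr19:44394455-44407879, minus strand) and Scd2 (chr19:44293674-44306864, plus strand) lie 87590 bases apart on chromosome 19. Scd1 had 517, 350.3, 678 and 574 CPM in cKO replicates 1, 3, 4 and 6, against 606, 384, 731 and 634 CPM in control replicates 1, 3, 4 and 6. Scd2, the main brain form, had 4243, 3025, 5198 and 5348 CPM in cKO replicates 1, 3, 4 and 6, against 5021, 3448, 5997 and 6327 CPM in control replicates 1, 3, 4 and 6. Replicate 3 was the lowest in both groups for both genes, and each cKO library was below the control of its batch. Their log2 fold changes were -0.15 ± 0.03 (SE) for Scd1 (adjusted p = 0.00641, edgeR) and -0.22 ± 0.03 (SE) for Scd2 (adjusted p = 0.00067, edgeR). Fads1 (chr19:10182888-10196877, plus strand) and Fads2 (chr19:10062765-10101746, minus strand), the desaturases of polyunsaturated fatty acids, lie 81141 bases apart on the same chromosome. Fads1 had 403, 365, 448 and 454 CPM in cKO replicates 1, 3, 4 and 6, against 486, 392, 488 and 521 CPM in control replicates 1, 3, 4 and 6. Fads2 had 628, 470.2, 630.4 and 689 CPM in cKO replicates 1, 3, 4 and 6, against 705, 525, 729.8 and 816 CPM in control replicates 1, 3, 4 and 6. For both genes replicate 3 was the lowest and replicate 6 the highest in each group, and the cKO and control ranges overlapped. Their log2 fold changes were -0.17 ± 0.03 (SE) for Fads1 (adjusted p = 0.00572, edgeR) and -0.20 ± 0.03 (SE) for Fads2 (adjusted p = 0.00136, edgeR). Scd1 and Scd2 are close paralogs, and estimated counts can be divided between such genes.

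The elongases differed in their calls. Elovl5 (chr9:77917364-77984519, plus strand), which lengthens polyunsaturated chains, had 220.2, 169, 208 and 195 CPM in cKO replicates 1, 3, 4 and 6, against 256, 188, 236 and 216 CPM in control replicates 1, 3, 4 and 6. Replicate 1 was the highest and replicate 3 the lowest in both groups, and the log2 fold change was -0.17 ± 0.03 (SE) (adjusted p = 0.00252, edgeR). Elovl6 (chr3:129532355-129638495, plus strand), which lengthens saturated chains made by fatty acid synthase, had 285, 304, 319.6 and 258 CPM in cKO replicates 1, 3, 4 and 6, against 307, 294, 339.8 and 249 CPM in control replicates 1, 3, 4 and 6. The cKO library was the lower of its pair in replicates 1 and 4 and the higher in replicates 3 and 6. Elovl6 had a log2 fold change of -0.02 ± 0.04 (SE) (adjusted p = 0.702, edgeR), and it was the fatty acid gene that did not pass.

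**Figure D3:**
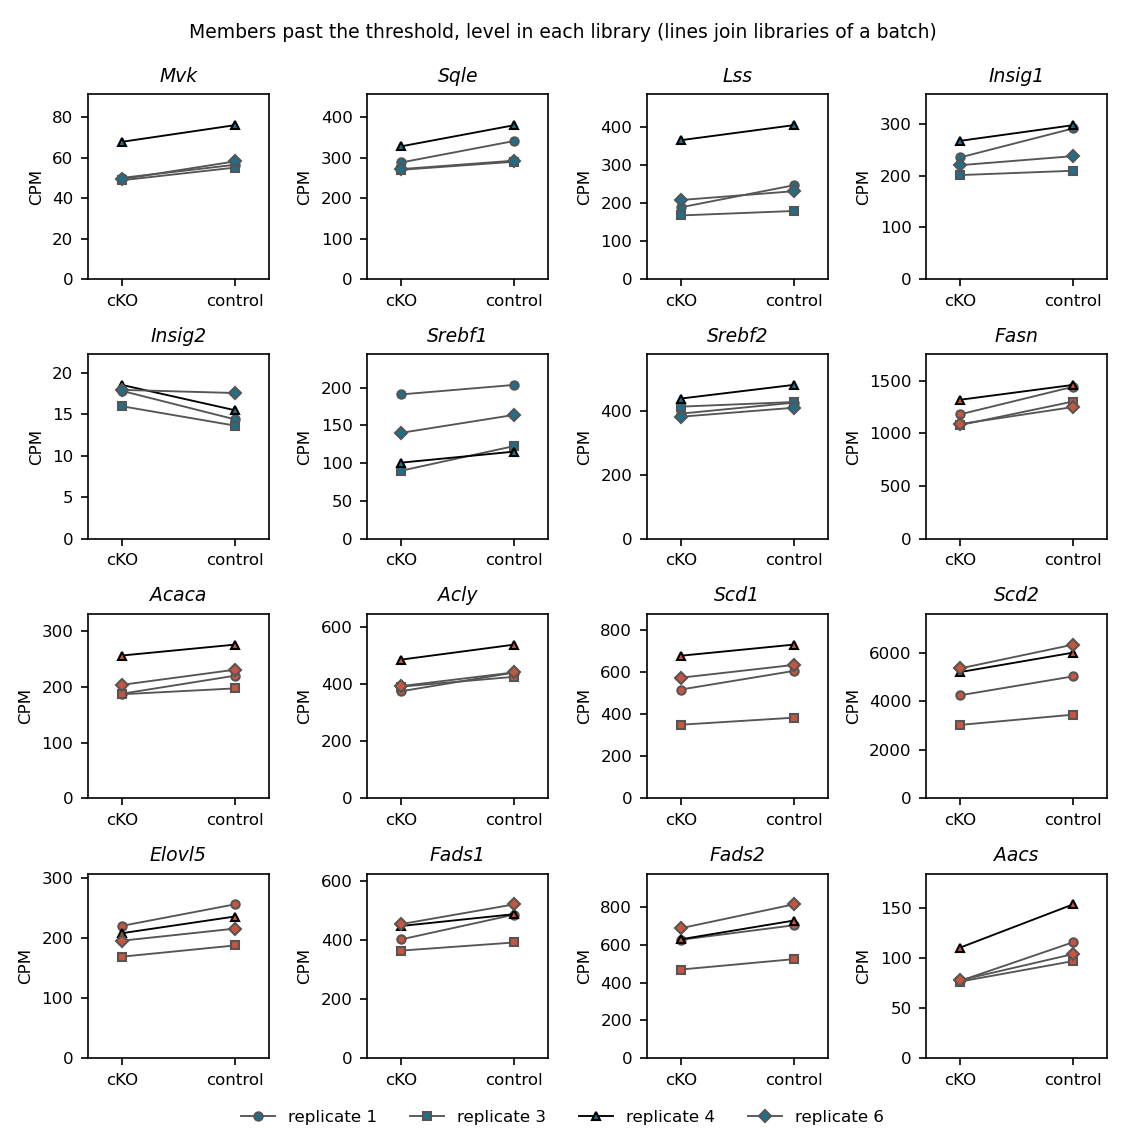
Level in CPM (linear axes from 0) of the 15 members that fell and the 1 that rose, in each of the 8 libraries, with cKO left of control, a marker shape per replicate and lines joining libraries of a batch. In Scd2 the lines run from 4243, 3025, 5198 and 5348 CPM in cKO libraries to 5021, 3448, 5997 and 6327 CPM in control libraries, all in one direction, and in Insig2 they run the other way.

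Among the 6 enzymes from Hmgcs1 to Fdps, 1 fell. Mvk (chr5:114444269-114460591, plus strand), mevalonate kinase, had 50.001, 48.8, 67.8 and 49.4 CPM in cKO replicates 1, 3, 4 and 6, against 56.5, 55.1, 76.0 and 58.1 CPM in control replicates 1, 3, 4 and 6. Replicate 4 stood above the rest in both groups, and the other cKO libraries were below every control library. Over the 4 pairs Mvk fell, with a log2 fold change of -0.19 ± 0.03 (SE) (adjusted p = 0.00369, edgeR). The other 5 did not pass. Hmgcs1, which makes HMG-CoA, had a log2 fold change of -0.08 ± 0.04 (SE) (adjusted p = 0.187, edgeR), with a mean of 1157 ± 273 CPM in cKO libraries and 1226 ± 295 CPM in control libraries (SD, n = 4). Pmvk and Mvd, which follow Mvk in the chain, had log2 fold changes of -0.05 ± 0.04 (SE) and -0.12 ± 0.05 (SE). Idi1, which interconverts the isoprenoid units, and Fdps, which joins them to farnesyl diphosphate, had 0.05 ± 0.06 (SE) and -0.02 ± 0.03 (SE).

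Of the 11 enzymes from Fdft1 to Dhcr7, 2 fell, and they are the steps that oxidise and close squalene. Sqle (chr15:59315077-59331192, plus strand), squalene epoxidase, had 289, 270.5, 329 and 272 CPM in cKO replicates 1, 3, 4 and 6, against 342, 290.5, 381 and 293 CPM in control replicates 1, 3, 4 and 6. The cKO libraries were the lower of each pair, and cKO replicate 4 was above control replicates 3 and 6. Sqle fell, with a log2 fold change of -0.17 ± 0.03 (SE) (adjusted p = 0.0064, edgeR). Lss (chr10:76531588-76557138, plus strand), which closes the ring to lanosterol, had 189, 167, 365 and 208 CPM in cKO replicates 1, 3, 4 and 6, against 247, 179, 405 and 231 CPM in control replicates 1, 3, 4 and 6. Replicate 4 was far above the rest in both groups, and the pair of replicate 1 differed most. Over the 4 pairs Lss fell, with a log2 fold change of -0.20 ± 0.05 (SE) (adjusted p = 0.0165, edgeR). Without replicate 4 neither gene passed, with edgeR adjusted p of 0.0597 for Sqle and 0.0528 for Lss. Fdft1, which makes squalene, had a log2 fold change of -0.02 ± 0.04 (SE), with 219.6 ± 37.8 CPM in cKO libraries and 223 ± 41.1 CPM in control libraries (SD, n = 4). The enzymes that trim lanosterol to cholesterol did not pass. The lanosterol demethylase Cyp51 had a log2 fold change of -0.08 ± 0.04 (SE), the sterol reductase Tm7sf2 -0.12 ± 0.04 (SE), the methylsterol oxidase Msmo1 -0.01 ± 0.05 (SE) and the decarboxylating dehydrogenase Nsdhl -0.09 ± 0.04 (SE). The keto reductase Hsd17b7 had 0.02 ± 0.04 (SE), the isomerase Ebp -0.03 ± 0.05 (SE), the desaturase Sc5d 0.03 ± 0.04 (SE) and the late reductase Dhcr7 -0.06 ± 0.03 (SE). The smallest adjusted p of these 8 in edgeR was 0.0713, for Tm7sf2. Together 3 of the 17 sterol enzymes fell, or 17.6%, a share that lies between the 10.4% of all genes and the 23.3% of genes at 100 CPM or more.

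The genes that control the branches split in direction. Insig1 (chr5:28071363-28078662, plus strand), itself an SREBP target in the classical scheme, had 235, 201, 267 and 220.1 CPM in cKO replicates 1, 3, 4 and 6, against 291, 209, 297 and 238 CPM in control replicates 1, 3, 4 and 6. The pair of replicate 1 differed most and that of replicate 3 least. Insig1 fell, with a log2 fold change of -0.16 ± 0.04 (SE) (adjusted p = 0.0197, edgeR). Its paralog Insig2 (chr1:121304353-121332589, minus strand) rose and had 17.8, 16.0, 18.6 and 18.0 CPM in cKO replicates 1, 3, 4 and 6, against 14.4, 13.7, 15.5 and 17.6 CPM in control replicates 1, 3, 4 and 6. The cKO library was the higher in each pair, though by little in replicate 6, and the cKO range of 16.0 to 18.6 CPM overlapped the control range of 13.7 to 17.6 CPM. Over the 4 pairs Insig2 rose, with a log2 fold change of 0.21 ± 0.06 (SE) (adjusted p = 0.0354, edgeR). Insig2 did not pass without replicate 1, 3 or 4, with edgeR adjusted p up to 0.146, or in DESeq2 with the same block, with an adjusted p of 0.0659. Insig1 did not pass without replicate 1 or 4, with edgeR adjusted p up to 0.0927.

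Both SREBP genes were lower in every pair. Srebf1 (chr11:60199089-60222581, minus strand) had 191, 90.0, 101 and 140.2 CPM in cKO replicates 1, 3, 4 and 6, against 204, 123, 115 and 164 CPM in control replicates 1, 3, 4 and 6. Replicate 1 was the highest in both groups, and the pair of replicate 3 differed most. Srebf1 fell, with a log2 fold change of -0.24 ± 0.05 (SE) (adjusted p = 0.0148, edgeR), and the counts cover all its transcripts, so its a and c forms were not separated. Srebf2 (chr15:82147181-82205379, plus strand) had 391, 413, 438 and 381 CPM in cKO replicates 1, 3, 4 and 6, against 425, 427, 481 and 409 CPM in control replicates 1, 3, 4 and 6. Replicate 4 was the highest and replicate 6 the lowest in both groups. Over the 4 pairs Srebf2 fell, with a log2 fold change of -0.10 ± 0.03 (SE) (adjusted p = 0.0312, edgeR). Srebf1 did not pass without replicate 4 or 6, with edgeR adjusted p up to 0.0577, and Srebf2 did not pass without any 1 of the replicates, with edgeR adjusted p from 0.0507 to 0.207.

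The escort protein gene Scap (chr9:110333288-110384950, plus strand) did not pass. It had 120.1, 91.8, 102 and 95.7 CPM in cKO replicates 1, 3, 4 and 6, against 117, 103, 103 and 101 CPM in control replicates 1, 3, 4 and 6. The cKO library was the higher in replicate 1 and the lower in the other pairs, and the log2 fold change was -0.05 ± 0.04 (SE) (adjusted p = 0.36, edgeR). Stard4, a carrier of sterols between membranes, had a log2 fold change of -0.03 ± 0.04 (SE). Acat2, the cytosolic thiolase that makes acetoacetyl-CoA from acetyl-CoA, had -0.01 ± 0.03 (SE). Aacs and Acat2 thus have the same product, and 1 fell while the other did not pass (adjusted p = 0.863, edgeR). The difference between them was not tested.

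The direction within pairs varied for the sterol enzymes. Of the 17 sterol enzymes, the cKO library was the lower for 17 in replicate 1, 4 in replicate 3, 14 in replicate 4 and 13 in replicate 6. Their median difference on the log2 CPM scale was -0.16, 0.05, -0.07 and -0.07 in those pairs. Of the 10 fatty acid genes, the cKO library was the lower for 10, 9, 10 and 9, with medians of -0.23, -0.14, -0.15 and -0.19. Hmgcs1, Mvd, Fdps, Fdft1, Cyp51, Msmo1, Nsdhl, Dhcr7 and Stard4 were lower in cKO in replicates 1, 4 and 6 and higher in replicate 3, and 0 fatty acid genes had that pattern. Over all 18102 genes tested, the cKO library was the lower for 9412, 9440, 8925 and 9386 in replicates 1, 3, 4 and 6. The median over all genes in replicate 3 was -0.01. How many of all genes were lower in replicates 1, 4 and 6 and higher in replicate 3 was not counted. Without replicate 3, 6 sterol genes fell again, with Mvd among them (adjusted p = 0.0257, edgeR) and Srebf2 and Insig2 no longer past the threshold, and the sterol median was -0.08. The labels name the batch of replicate 3 Batch-3-2, without stating what the added number marks.

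**Figure D4:**
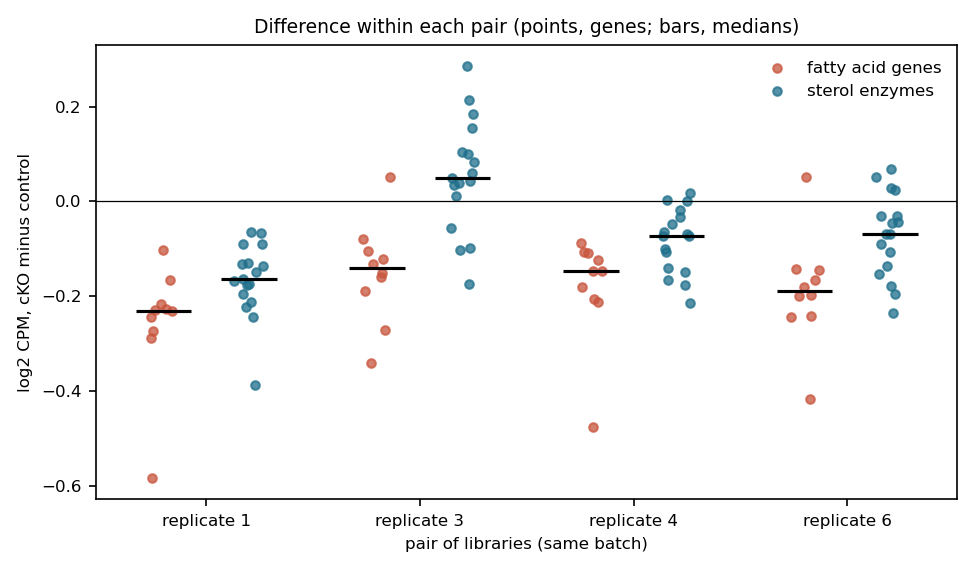
Difference of cKO minus control in log2 CPM within each of the 4 batches, 1 point per gene, for the 10 fatty acid genes and the 17 sterol enzymes, with medians as bars. The sterol enzymes lie below 0 in replicate 1 (17 of 17) and mostly above it in replicate 3 (13 of 17), while 9 or 10 of the 10 fatty acid genes lie below 0 in every batch.

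Levels differed between batches in both groups. Replicate 4 was the highest library for 27 of 34 members among cKO libraries and for 26 of 34 among control libraries. Replicate 3 was the highest for 0 in either group, and the lowest for 20 among cKO and 23 among control libraries. Among control libraries the highest over the lowest level ran from 1.15 for Scap to 2.26 for Lss, with a median of 1.46 over the 34. On the log2 scale the median range across control batches was 0.55, against a median absolute fold change of 0.11 between the groups. The batch range was the larger for 33 of 34 members, with Fasn as the exception. A range over 4 single libraries tends to exceed a difference between group averages, so the 2 measures are not alike. The matching counts over all genes were not taken.

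**Figure D5:**
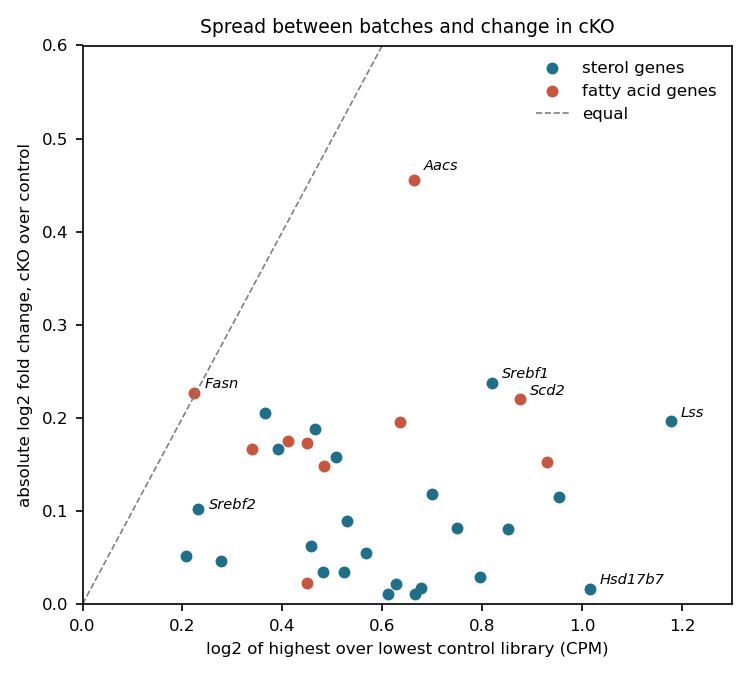
Range of log2 CPM across the 4 control libraries (horizontal axis) against the absolute log2 fold change of cKO over control (vertical axis) for the 34 members, with a line where the values are equal. The members but Fasn lie on the side where the range is larger than the fold change, and Aacs is the highest point, at 0.46. A range of single libraries and a fitted group difference are unlike measures.

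Per kilobase of merged exons, Scd2 was the most abundant member, with 815 ± 196 CPM per kb in cKO libraries and 951 ± 236 CPM per kb in control libraries (SD, n = 4). Hmgcs1 followed, with 252 ± 59.4 CPM per kb in cKO and 267 ± 64.3 CPM per kb in control libraries, and then Fads2, with 183 ± 28.5 and 211 ± 37.1 CPM per kb in the same order. Hmgcs1 and Fads2 lay within their spread of each other, as did Fasn at 107 ± 10.2 CPM per kb in cKO and 125 ± 9.46 CPM per kb in control libraries and Scd1 at 108 ± 27.98 CPM per kb in cKO and 120.3 ± 30.0 CPM per kb in control libraries. Insig2 was the lowest of the 34, with 5.07 ± 0.32 CPM per kb in cKO and 4.40 ± 0.49 CPM per kb in control libraries. The members together took 1.10% to 1.56% of all counts in cKO libraries and 1.16% to 1.67% in control libraries.

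Markers of other cell states moved with the groups. Of 18 tested markers of differentiating and myelinating oligodendrocytes, 9 rose and 0 fell, with a median log2 fold change of 0.55, and Gjb1 and Aspa rose by 1.25 and 1.97. Their summed level was 810 to 6511 CPM in cKO libraries and 711 to 5185 CPM in control libraries, and was higher in cKO in 3 of 4 pairs. Of 11 astrocyte markers 2 rose and 4 fell, with a median log2 fold change of 0.05. The summed level was 1167 to 2826 CPM in cKO and 1257 to 3076 CPM in control libraries, lower in cKO in all 4 pairs. Slc1a3, the largest part of that sum, was lower in cKO in all 4 pairs. Gfap, Aqp4 and Slc1a2 were higher in cKO in all 4 pairs, so the markers did not move in 1 direction. Of 12 neuron markers 7 rose and 0 fell, among them Snap25 by 1.52. The summed level was 1003 to 1637 CPM in cKO and 919.7 to 1589 CPM in control libraries, higher in cKO in 3 of 4 pairs. Most of that sum was Map2, at 750 to 1248 CPM in cKO and 740 to 1251 CPM in control libraries. Rbfox3 was at 0.95 to 1.76 CPM in cKO and 1.36 to 1.83 CPM in control libraries. Slc17a7 was at 0.097 to 0.21 CPM in cKO and 0.13 to 0.27 CPM in control libraries. Of 3 tested microglia markers 2 rose, both at low levels. The symbols of 8 of the 12 listed microglia markers were not among the 24155 genes with counts. Cd68 averaged 1.13 ± 0.47 CPM in cKO and 0.66 ± 0.30 CPM in control libraries, and P2ry12 0.77 ± 0.46 CPM in cKO and 0.45 ± 0.27 CPM in control libraries (SD, n = 4). Csf1r, a defining microglial receptor, was at 0.0352 to 0.297 CPM in cKO and 0.0189 to 0.127 CPM in control libraries. Endothelial markers summed to 3.93 to 9.19 CPM in cKO and 3.22 to 11.4 CPM in control libraries (1 of 5 rose). Fibroblast markers summed to 16.8 to 39.0 CPM in cKO and 17.7 to 43.5 CPM in control libraries (1 of 4 rose). Most of the fibroblast sum was Fn1, at 16.3 to 37.7 CPM in cKO and 16.9 to 41.9 CPM in control libraries. Col1a1 was at 0.089 to 0.39 CPM in cKO and 0.20 to 0.67 CPM in control libraries. Mitochondrial transcripts took 3.63%, 2.999%, 3.17% and 3.46% of counts in cKO replicates 1, 3, 4 and 6, against 3.24%, 2.42%, 2.57% and 2.95% in control replicates 1, 3, 4 and 6. Nuclear ribosomal RNA took 6.61%, 7.53%, 7.41% and 9.13% in the cKO libraries, against 9.04%, 7.91%, 10.1% and 9.67% in the control libraries of the same numbers. The mitochondrial share was thus higher, and the ribosomal RNA share lower, in cKO in all 4 pairs. With mitochondrial and ribosomal RNA genes left out, 6 sterol and 9 fatty acid genes fell and 1 sterol gene rose. The part of the cell-type markers in the sterol and fatty acid results was not tested.

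Some members overlap other genes, and the labels do not state if reads were counted by strand. Of the genes that fell, Srebf1 overlaps Rai1 on the opposite strand, which had 46.8% of the count of Srebf1 and a log2 fold change of -0.03 (adjusted p = 0.645, edgeR). Among those that did not pass, Mvd overlaps Galnt2l, Fdft1 overlaps Ctsb and Cyp51 overlaps Akap9 on the opposite strand, and Tm7sf2 overlaps Vps51 on the same strand, and these values are uncertain to that extent.

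Further genes of these pathways, outside the 34, were counted by list, beside 10.0% of all genes tested that rose and 10.4% that fell. Of 9 tested enzymes that also serve sterol synthesis, 1 rose and 2 fell, with a median log2 fold change of -0.06. Cyb5r3, an electron donor to sterol oxidation, fell by 0.15 (adjusted p = 0.00617, edgeR), and Ggps1, which makes geranylgeranyl diphosphate, rose by 0.10 (adjusted p = 0.0499, edgeR). Of 13 genes for SREBP processing and degradation, 0 rose and 3 fell, with a median of -0.07. They include Lpin1, a phosphatidate phosphatase that limits nuclear SREBP, at a log2 fold change of -0.25 ± 0.04 (SE), and the ubiquitin ligase Rnf145, at -0.13 ± 0.03 (SE). Of 30 genes for cholesterol uptake, storage, efflux and transport, 3 rose and 8 fell, with a median of -0.11. The lipoprotein receptor Scarb1 fell by 0.30 and the sterol carrier Gramd1a by 0.19, and Apod, an apolipoprotein at 3.19 ± 1.84 CPM in cKO and 1.45 ± 0.75 CPM in control libraries (SD, n = 4), rose by 1.12. Of 32 further genes for fatty acid synthesis, activation and elongation, 4 rose and 5 fell, shares near those of all genes, with a median of -0.03. Among them Pgd, which makes NADPH in the pentose phosphate pathway, fell by 0.19, the desaturase homolog Fads3 fell by 0.50, and Fads6 rose by 0.46.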

How the data were processed

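RNA-seq of 4 cKO and 4 control libraries was used. TRIzol and column extraction, an RNA integrity of 8 or more and oligo-dT capture are stated per the labels' protocols. The tools named per the submitters' processing notes are cutadapt, STAR, DESeq2 and Partek, with mm10 as the genome. Tool versions, the counting annotation and the strand setting are not given in these sources. The authors deposited 1 table of estimated counts per gene, without normalization. Of these, 51.6% were not whole numbers, so reads shared between genes may have been divided.

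Each column was assigned to its sample through the batch name in the sample's description. Expected counts were rounded to whole numbers and filtered with filterByExpr (minimum count 10), which kept 18102 genes and removed 6053. TMM scaling, glmQLFit (robust) and glmQLFTest in edgeR 4.0.16 (R 4.3.3) tested cKO against control, 2-sided, with the replicate number as a block, Benjamini-Hochberg adjustment over the 18102 genes and a cutoff of 0.05. The labels place 1 cKO and 1 control library in each batch, and deviations from group means correlated at 0.79, 0.79, 0.76 and 0.75 within replicates 1, 3, 4 and 6, against at most 0.39 between different numbers. On simulated counts the blocked fit recovered most planted changes but made more false calls than its nominal rate. Every planted change was larger than the fold changes of all members but Aacs, so recovery of changes that small was not tested. Differences within pairs are on log2 CPM with a prior count of 2. Alternatives were upper-quartile or RLE factors, all genes kept, a filter of 1 CPM in 4 libraries, no replicate block, DESeq2 1.42.0 and limma-voom (limma 3.58.1) with the block, leaving out ribosomal and mitochondrial genes, and leaving out each replicate pair. The members and lists were chosen with earlier results of these data known. Named genes are all members, Ehmt1, Ehmt2 and up to 3 called genes per list with the smallest p. Hmgcs1's promoter, and the markers and overlapping genes named beside results, were chosen after values were seen. A few genes taken by this rule are not reported here. Exon lengths are from GENCODE M21, whose coordinates matched the deposited ones for all 34 members.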

Additional observations from a re-analysis of the deposited data

Results flagged for a closer look

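Of 72 groups of 4 libraries (34 members, Ehmt1 and Ehmt2, each in cKO and control), 9 held a library far from the other 3, where chance gives about 5% of groups. In 8 of these the library was replicate 4, on the high side. Mvk stood at 67.8 CPM in cKO replicate 4, against 48.8 to 50.001 CPM in the other cKO libraries, and at 76.0 CPM in control replicate 4, against 55.1 to 58.1 CPM in the other control libraries. Acly stood at 485 CPM in cKO replicate 4, against 375 to 393 CPM in the other cKO libraries, and at 538 CPM in control replicate 4, against 425 to 440.5 CPM in the other control libraries. In cKO replicate 4, Aacs was at 110.4 CPM (76.5 to 77.8 CPM in the other cKO libraries), Fdft1 at 276 CPM (195 to 206 CPM), Tm7sf2 at 43.0 CPM (26.5 to 27.8 CPM) and Dhcr7 at 244 CPM (192 to 197 CPM). The remaining one was Scap, at 117 CPM in control replicate 1, against 101 to 103 CPM in the other control libraries. The groups share libraries, so these are not separate observations.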

How the results depend on the processing

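Without the replicate block, the counts were 0 sterol genes lower, 0 sterol genes higher, 0 fatty acid genes lower and 3 genes in all past the threshold, against 6, 1, 9 and 3706 with it, and the 16 member calls were all lost. With the block and all libraries, 7 other settings left 234 of 238 member results as they were. DESeq2 with the block called 0 sterol genes higher, since Insig2 missed the threshold. Under upper-quartile factors Srebf2 missed it, leaving 5 sterol genes lower, and the uncalled Msmo1 and Acat2 changed sign, to 0.0025 and 0.0033. Leaving out each replicate pair in turn gave 1 to 6 sterol genes lower, 0 to 1 higher, 8 to 9 fatty acid genes lower and 2102 (without replicate 3) to 3432 genes in all, and the medians ran from -0.08 to -0.04 for sterol and from -0.19 to -0.15 for fatty acid genes. Without replicate 4, Mvk was the 1 sterol gene that fell, and Acaca was lost without replicate 1. The other 8 called fatty acid genes passed in all 4 such fits. Uncalled members that changed sign there had log2 fold changes from -0.053 to 0.0070 (Fdps), -0.076 to 0.016 (Fdft1), -0.072 to 0.031 (Msmo1), -0.034 to 0.021 (Acat2), -0.048 to 0.010 (Elovl6), -0.058 to 0.014 (Ebp), -0.084 to 0.015 (Stard4), -0.018 to 0.12 (Idi1), -0.0082 to 0.051 (Hsd17b7) and -0.028 to 0.061 (Sc5d). Fewer libraries enter these fits, and the cause was not tested. The smallest count of a member in any library was 716.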

Other observations

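Genes that use or burn fatty acids were also counted, beside 10.0% of all genes tested that rose and 10.4% that fell. Of 26 genes for fatty acid oxidation, 1 rose and 9 fell, with a median log2 fold change of -0.04. Cpt1a, which commits fatty acids to mitochondrial oxidation, averaged 56.1 ± 25.7 CPM in cKO libraries and 68.7 ± 29.6 CPM in control libraries (SD, n = 4), and fell by 0.31 on the log2 scale (adjusted p = 0.000362, edgeR). Acaa2 and Hadh, enzymes of the oxidation cycle, fell by 0.44 and 0.27. Of 22 genes for triglyceride and phospholipid synthesis, 4 rose and 8 fell, with a median of -0.09. Pcyt1b, a regulated step of phosphatidylcholine synthesis, rose by 0.41 and Agpat5, an acyltransferase, by 0.23, while Pcyt2, the matching step for phosphatidylethanolamine, fell by 0.29.

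Of 15 tested genes for the sphingolipids and galactolipids of myelin, 3 rose and 0 fell, with a median of -0.01. Ugt8a, which makes galactosylceramide, averaged 109 ± 42.0 CPM in cKO libraries and 87.7 ± 30.9 CPM in control libraries (SD, n = 4), and rose by 0.31 (adjusted p = 0.000193, edgeR). Gal3st1, which adds sulfate to galactosylceramide, rose by 0.50 (adjusted p = 0.0156, edgeR), and Sptssa, a subunit of serine palmitoyltransferase, by 0.17 (adjusted p = 0.0187, edgeR). Ugt8a is also among the markers of differentiating oligodendrocytes, of which 9 of 18 rose. Of 20 cell cycle genes, 0 passed the edgeR test and 3 had an unadjusted p under 0.05.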
